A study of Mus musculus with 4 samples.

Results

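Of the 32285 genes counted in the libraries, 5 encode the TOX and NR4A transcription factors described here: Tox, Tox2, Nr4a1, Nr4a2 and Nr4a3. They were found by their symbols, in a choice made with earlier results of these data known. Spleen Tc came from 4 lethally irradiated BALB/c recipients that carried the WEHI-3B AML line (10000 cells) and had been transplanted with allogeneic C57BL/6 BM, followed on day 2 by 200000 donor spleen Tc. Spleens were taken on day 23, and each recipient gave 1 library. In 2 libraries the donors were Havcr2fl/fl, in which the gene for TIM-3 is flanked by loxP sites but kept, and in the other 2 they were Havcr2fl/fl;E8icre/+, in which a cre driven by a Cd8a enhancer is meant to delete it in CD8+ cells and not in CD4+ cells. All 4 recipients thus shared the irradiation, the leukemia, the allogeneic transplant and the floxed allele, and the mice were adults of either sex. Values of single libraries are given in the order Havcr2fl/fl;E8icre/+ replicates 1 and 2, then Havcr2fl/fl replicates 1 and 2.

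TOX and TOX2 are DNA-binding proteins with an HMG box. TOX is induced by sustained T cell receptor signaling through calcineurin and NFAT, and is known for installing and keeping up the program of exhausted CD8+ Tc. The NR4A proteins, Nr4a1 (NUR77), Nr4a2 (NURR1) and Nr4a3 (NOR1), are orphan nuclear receptors whose genes respond within minutes to receptor signals, and they are known to act with TOX in restraining the effector functions of exhausted cells. Exhausted CD8+ Tc range from precursor cells (TPEX), which keep the factor TCF1 encoded by Tcf7, to terminally exhausted cells (TTEX) rich in inhibitory receptors such as PD-1.

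On GRCm38, Tox (ENSMUSG00000041272) lies on chromosome 4 from 6686353 to 6991557 on the minus strand, and Nr4a3 (ENSMUSG00000028341) on the same chromosome from 48045153 to 48086447 on the plus strand. Tox2 (ENSMUSG00000074607) is on chromosome 2 from 163203125 to 163324170 on the plus strand, Nr4a2 (ENSMUSG00000026826) on chromosome 2 from 57106830 to 57124003 on the minus strand, and Nr4a1 (ENSMUSG00000023034) on chromosome 15 from 101254269 to 101274795 on the plus strand. The 250 bases before the RefSeq starts of the 3 NR4A genes are shown. The reason is that these genes are textbook targets of cAMP-responsive factors, and that Nr4a2 and Nr4a3 differed oppositely between CD8+ and CD4+ Tc below. In cycling CD8+ Tc both were lower. The windows are taken from RefSeq on GRCm38.p6, at chr15:101266596-101266845 (plus strand), chr2:57124004-57124253 (minus strand) and chr4:48045055-48045304 (plus strand). The bounds above are from GENCODE, and the Nr4a1 window lies wholly and the Nr4a3 window partly inside them. Capitals mark each TGACG or CGTCA, the core of the cAMP response element read on either strand.

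Nr4a1: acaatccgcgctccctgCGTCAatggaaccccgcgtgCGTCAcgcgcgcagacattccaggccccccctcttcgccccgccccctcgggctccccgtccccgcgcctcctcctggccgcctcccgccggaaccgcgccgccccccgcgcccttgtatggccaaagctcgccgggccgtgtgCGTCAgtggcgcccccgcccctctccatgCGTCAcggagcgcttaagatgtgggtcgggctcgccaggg
Nr4a2: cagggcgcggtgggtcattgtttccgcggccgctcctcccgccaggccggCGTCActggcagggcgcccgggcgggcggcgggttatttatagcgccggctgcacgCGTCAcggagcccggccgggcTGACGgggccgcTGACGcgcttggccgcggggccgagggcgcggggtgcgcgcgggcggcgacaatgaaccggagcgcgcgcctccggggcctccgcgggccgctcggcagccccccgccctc
Nr4a3: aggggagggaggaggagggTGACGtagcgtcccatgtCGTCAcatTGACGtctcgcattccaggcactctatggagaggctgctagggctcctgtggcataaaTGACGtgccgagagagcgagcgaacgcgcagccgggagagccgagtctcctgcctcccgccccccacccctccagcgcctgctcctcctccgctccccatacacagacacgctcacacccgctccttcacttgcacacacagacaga

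Each of the 3 windows held 4 cores, and none held the full element TGACGTCA, in which 2 cores overlap. Among 32851 promoter windows of this length, 17.8% held at least 1 core, 0.137% at least 4 and 1.55% the full element. Of the 5 annotated starts of Tox2, 1 had a single core, and Tox had no entry in the table. A match in these letters is a description of the window and not a bound site.

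The libraries held 1511 to 6737 barcodes with 17693991 to 55045903 gene UMIs, each a captured RNA molecule counted once, and any pair of libraries shared 1 to 10 barcodes. Of 11632 cells kept by the filter, 119 were removed as doublets, 105 of them from Havcr2fl/fl replicate 2, and 6767 cells were T cells by cluster. Their Cd3 genes were found in 99.2% to 100% of the cells of each T cell cluster and in 6.94% to 19.8% of the cells of the other clusters, which held 4746 cells. By their Cd8a, Cd8b1 and Cd4 UMIs, 4257 were CD8+ Tc (1530, 955, 487 and 1285) and 1755 were CD4+ Tc (577, 625, 241 and 312). Erythroid RNA was present in both, at 1670 to 6144 UMIs per 1000000 in CD8+ Tc and 256.2 to 4969 in CD4+ Tc over the 7 listed markers. Levels below are CPM, that is, UMIs of a gene per 1000000 gene UMIs of the same class of cells in a library. Since these are shares of the captured RNA, fewer molecules of a gene and more of other RNA cannot be told apart in them. They are not scaled to transcript length, so levels are compared between cells and not between genes.

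Havcr2 was at 61.2, 7.93, 54.7 and 115 CPM in CD8+ Tc, so that the library labelled Havcr2fl/fl;E8icre/+ replicate 1 lay above a library labelled Havcr2fl/fl. In CD4+ Tc Havcr2 was at 56.4, 29.2, 16.8 and 49.3 CPM, above the CD8+ value only in Havcr2fl/fl;E8icre/+ replicate 2. The sources used here do not say which exons are removed, and 3′ tags outside the removed part would not show a loss. Whether the deletion took place in each library was not tested. Genotypes are therefore those of the labels.

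Tox gave 14819 UMIs in CD8+ Tc. It was at 628, 642, 590 and 495 CPM in the 4 libraries, a mean of 589 ± 66.4 (SD, n = 4, both genotypes together). It was seen in 82.4% of CD8+ Tc, with 4.22 UMIs per cell that had any and up to 33. After thinning every cell to 2000 UMIs so that depth was equal, 63.2% of CD8+ Tc had a Tox UMI (59.3% to 67.1% by library), against 1.5% of cells that were not T cells. Before thinning, the median was 4801 UMIs in CD8+ Tc and 16758.5 in cells that were not T cells. In CD4+ Tc, Tox was at 314, 572, 475 and 265 CPM, each below the CD8+ Tc of the same library, with Havcr2fl/fl;E8icre/+ replicate 2 reaching into the CD8+ range.

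Nr4a2 gave 4381 UMIs in CD8+ Tc and was at 238, 109, 127 and 208 CPM there, a mean of 170 ± 62.4 (SD, n = 4). Havcr2fl/fl;E8icre/+ replicate 1 and Havcr2fl/fl replicate 2 were high and the other 2 low, 1 library of each genotype on either side. In CD4+ Tc it was at 44.7, 46.4, 28.9 and 56.1 CPM, and no CD4+ value reached the lowest CD8+ value. A UMI of Nr4a2 was found in 20.7% of thinned CD8+ Tc and in 0.432% of cells that were not T cells.

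Tox2 gave 1223 UMIs in CD8+ Tc, at 66.5, 29.3, 47.7 and 49.4 CPM, and 290 in CD4+ Tc, at 28.6, 33.9, 33.6 and 26.1 CPM. The groups overlapped, since Havcr2fl/fl;E8icre/+ replicate 2 had less Tox2 in CD8+ than in CD4+ Tc. Nr4a1 and Nr4a3 were near the limit of detection. There were 164 UMIs of Nr4a1 in 126 of 4257 CD8+ Tc and 92 in 58 of 1755 CD4+ Tc, and 75 UMIs of Nr4a3 in 52 CD8+ and 75 in 43 CD4+ Tc. At this depth a cell without a UMI is no sign that the gene was off. Of the other TOX genes, Tox3 had no UMI in CD8+ Tc, and Tox4 was at 74.5, 76.0, 76.3 and 71.9 CPM there.

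CD8+ Tc and CD4+ Tc of the same mice were compared with the mouse as a block (edgeR, adjusted over all genes), in which 24.4% of genes passed the threshold. Of the 5 members, 3 were higher in CD8+ Tc, 1 was lower and 1 did not pass. Nr4a2 differed by 1.94 on the log2 scale (SE 0.15, adjusted p = 5.77e-07) and was higher in 4 of 4 mice. The difference for Tox was 0.64 (SE 0.11, adjusted p = 0.000945), higher in 4 of 4 mice, but missed the threshold with no block (adjusted p = 0.121). For Tox2 it was 0.63 (SE 0.18, adjusted p = 0.0229), higher in 3 of 4 mice, but 0.32 (adjusted p = 0.240) without Havcr2fl/fl;E8icre/+ replicate 1. It also missed the threshold without Havcr2fl/fl replicate 1 (adjusted p = 0.0533) or replicate 2 (adjusted p = 0.0871).

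Nr4a3, another NR4A gene, lay the other way. From only 75 UMIs in each lineage, with up to 16 in a single CD4+ cell, it was at 2.94, 2.55, 2.76 and 4.15 CPM in CD8+ Tc. In CD4+ Tc it was at 6.19, 11.0, 6.05 and 5.80 CPM, and the 2 sets of values did not overlap. Its log2 fold change was −1.28 (SE 0.29, adjusted p = 0.0057), lower in 4 of 4 mice, but −0.87 (adjusted p = 0.105) without Havcr2fl/fl;E8icre/+ replicate 2, the library with most Nr4a3 in CD4+ Tc, and at an adjusted p of 0.0588 by DESeq2. Nr4a1 had −0.60 (SE 0.30, adjusted p = 0.170), lower in 3 of 4 mice, and passed with the lineage taken by cluster (−0.91, adjusted p = 0.0106).

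Genes that receptor signals or cell handling are known to induce moved in both directions, more of them to lower levels in CD8+ Tc. Of 10 TCR-induced genes tested, 6 were lower and 2 higher (median log2 fold change −0.58, against 0.00 over all genes), among them Tnfrsf4 (OX40) at −2.75 (SE 0.08, adjusted p = 4.66e-10) and Egr2 at −1.5 (SE 0.26, adjusted p = 0.000697), while Tnfrsf9 (4-1BB) was higher at 1.08 (SE 0.17, adjusted p = 0.00047). Of 9 dissociation-induced genes tested, 7 were lower and 1, Ier3, higher (median −0.85). The 13 genes of that list summed to 535 to 700 CPM in CD8+ Tc and 989 to 1232 CPM in CD4+ Tc of the libraries, and their part in the NR4A values was not tested. Of the 8 inhibitory receptors, 5 were higher and 1 was lower (median 0.61), with Cd160 at 2.92 (SE 0.10, adjusted p = 1.06e-09). The 7 calcineurin and NFAT genes split evenly, with 2 higher and 2 lower, among them Nfatc2 at −0.61 (SE 0.08). Of 7 memory and quiescence factors 4 were lower and 1 was higher, and of 6 other exhaustion factors 2 were lower and 1 was higher, with Maf at −3.06 (SE 0.13) and Eomes at 1.72 (SE 0.15).

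CD8+ Tc formed 10 clusters and CD4+ Tc 6, made without the 5 members and named by markers that exclude them. The levels by cluster are a description, because the clusters were made from the same cells. Cluster 2 of CD8+ Tc was TPEX-like, with all of its 6 markers raised, Tcf7 and Slamf6 among them. It also had 5 of 6 naive or memory markers raised, a list that shares Il7r and Lef1 with that of TPEX. Cluster 3 was like short-term effectors (6 of 7, with Cx3cr1 and Klrg1), with 4 of 6 naive or memory markers raised too. Cluster 1 had 7 of 8 TTEX markers raised, Pdcd1, Lag3, Entpd1, Rgs16, Cd160, Cd244a and Eomes, but its top 10 genes held the effector markers Ccl4 and Gzma and none of TTEX, so it was left unnamed and is called by its number. It also had 5 of 7 effector markers raised. Cluster 0 (Fcer1g, Itga1, Cxcr6), cluster 4 (Ccl5, Il10, Rgs1, Maf) and cluster 8 (Ccnb2, Cenpf, Cdc20, with Cx3cr1 and Klrg1 raised) were unnamed too. Cluster 0 had 4 of 8 TTEX markers raised, Pdcd1, Lag3, Cd160 and Cd244a. Cluster 4 had 4 of 8 TTEX markers and 4 of 7 effector markers raised. Clusters 5 and 6 were cycling, cluster 7 carried interferon-induced genes, and cluster 9 held 16 cells with erythroid RNA and is left out.

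Nr4a2 marked 1 CD8+ cluster more than the others. In cluster 1 it was at 532, 292, 334 and 534 CPM, and the lowest of these lay above the highest of the next cluster, cluster 0, at 213, 138, 145 and 222. Short-term effector-like cells were lowest at 32.4, 18.4, 23.6 and 29.9 CPM. TPEX-like cells were nearly as low at 42.9, 71.8, 20.3 and 55.4. Between these ends lay clusters 5, 4, 6, 8 and 7, with means from 170 down to 53.7 CPM, and each overlapped its neighbor in the order. In cluster 1, 48.4% of thinned cells had an Nr4a2 UMI (42.4% to 54.2%), in TPEX-like cells 7.77% and in short-term effector-like cells 4.41%.

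Tox was spread more evenly. Cluster 1 was at 846, 829, 888 and 709 CPM, cluster 0 at 800, 830, 823 and 655, and cluster 4 at 993, 617, 784 and 660, and these 3 clusters did not separate. TPEX-like cells followed at 577, 845, 511 and 381 CPM, overlapping both the clusters above and the cycling clusters below. Short-term effector-like cells were lowest at 309, 272, 390 and 301 CPM. Yet 35.6% of their thinned cells had a Tox UMI (32.5% to 39.0%), far above the 1.5% of cells that were not T cells, so that Tox RNA was low there and not at background. The mitotic cluster 8 was close to the short-term effector-like cells, with a mean of 336 ± 53.9 CPM (SD, n = 4).

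Tox2 followed another order. It was highest in cluster 1, at 88.7, 35.9, 83.5 and 87.8 CPM, and next in the cycling clusters 5 and 6, with means of 65.1 ± 16.0 and 55.3 ± 21.4 (SD, n = 4). TPEX-like cells, at 30.6, 22.5, 36.6 and 6.93 CPM, and short-term effector-like cells, at 21.6, 4.61, 8.56 and 10.9, were at the low end. No cluster was apart from its neighbor in the order.

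Among the CD4+ clusters, cluster 2 was cytotoxic-like (6 of 7 markers, with Gzmk, Gzmb, Ccl5 and Eomes), cluster 1 precursor-like (6 of 6, with Tcf7 and Slamf6), cluster 4 cycling and cluster 5 Treg-like (6 of 6, with Foxp3, 34, 55, 4 and 16 cells). The precursor-like cells also had 4 of 6 naive or memory markers raised. Clusters 0 (Igfbp7, Il1rl1, Ebi3) and 3 (Ifitm1, Klf2, S1pr1) were unnamed. Nr4a2 stood apart in the cytotoxic-like cells, at 164, 205, 86.1 and 318 CPM, where every library was above all values of the other clusters with at least 10 cells per library. In precursor-like cells it was at 16.4, 7.04, 15.8 and 18.5 CPM. Tox was at 604, 980, 800 and 561 CPM in cytotoxic-like cells, and at 136, 168, 56.4 and 46.9 in cluster 3, the lowest.

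Tox2 had its highest CD4+ level in another place. Precursor-like cells were at 49.1, 66.8, 94.8 and 55.5 CPM, above the cytotoxic-like cells (42.3, 47.7, 50.3 and 53.0) in every library, although the 2 ranges overlapped. Cluster 0 was at 16.7, 21.6, 28.9 and 13.3 CPM. The precursor-like cells of CD4+ Tc were thus at the top of their order for Tox2, and the TPEX-like cells of CD8+ Tc near the bottom of theirs.

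**Figure D1:**
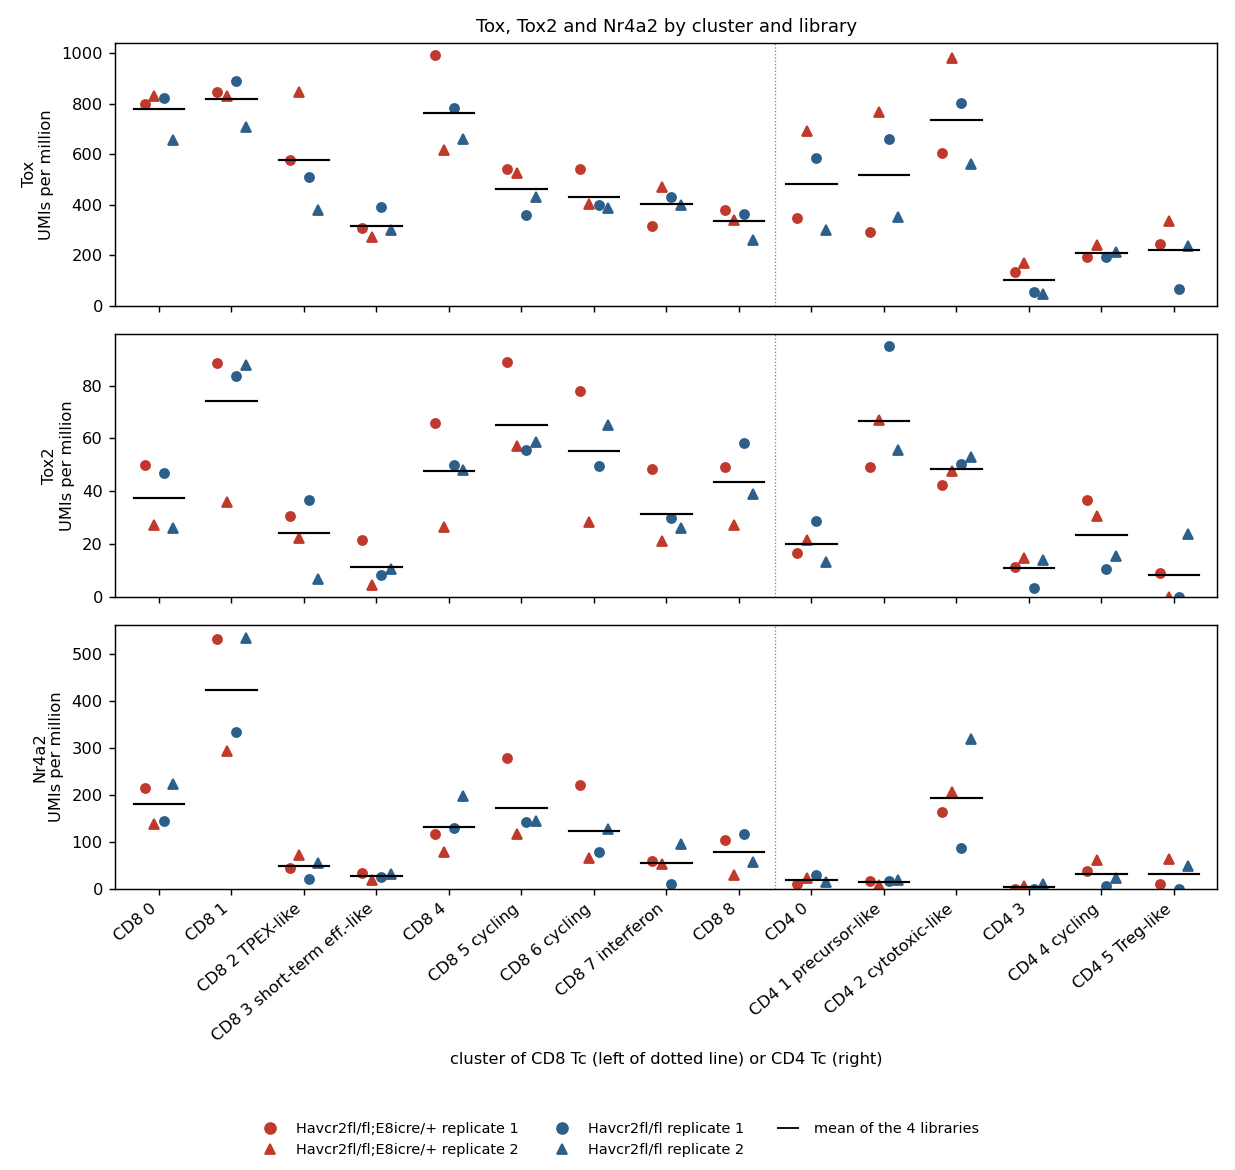
Levels of Tox, Tox2 and Nr4a2 in UMIs per 1000000 (y axes, linear, from 0) in each cluster of CD8 and CD4 Tc (x axis), with 1 point per library and a line at the mean of the 4. Nr4a2 in CD8 cluster 1 lies between 292 and 534, above all points of the next cluster, while Tox in clusters 0, 1 and 4 overlaps.

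The means of the sparse members were highest in Treg-like cells, but rested on few UMIs. Nr4a1 was at 54.4, 79.9, 0 and 47.8 CPM there, from 6, 20, 0 and 2 UMIs, and Nr4a3 at 9.06, 75.9, 33.3 and 0 CPM, from 1, 19, 1 and 0 UMIs. Most of these UMIs came from Havcr2fl/fl;E8icre/+ replicate 2, and Havcr2fl/fl replicate 1 had only 4 such cells. In the cytotoxic-like cells of Havcr2fl/fl replicate 2, Nr4a1 was at 60.6 CPM from 8 UMIs, above 3 of the 4 Treg-like values. Over the CD4+ Tc a single cell held up to 15 UMIs of Nr4a1 and up to 16 of Nr4a3, so that few cells decide these levels. In CD8+ Tc, Nr4a1 was highest in cluster 1, at 21, 7.18, 3.63 and 21.2 CPM, from 63 of its 164 UMIs. No cluster of CD8+ Tc was apart from the next for Nr4a1 or Nr4a3.

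**Figure D2:**
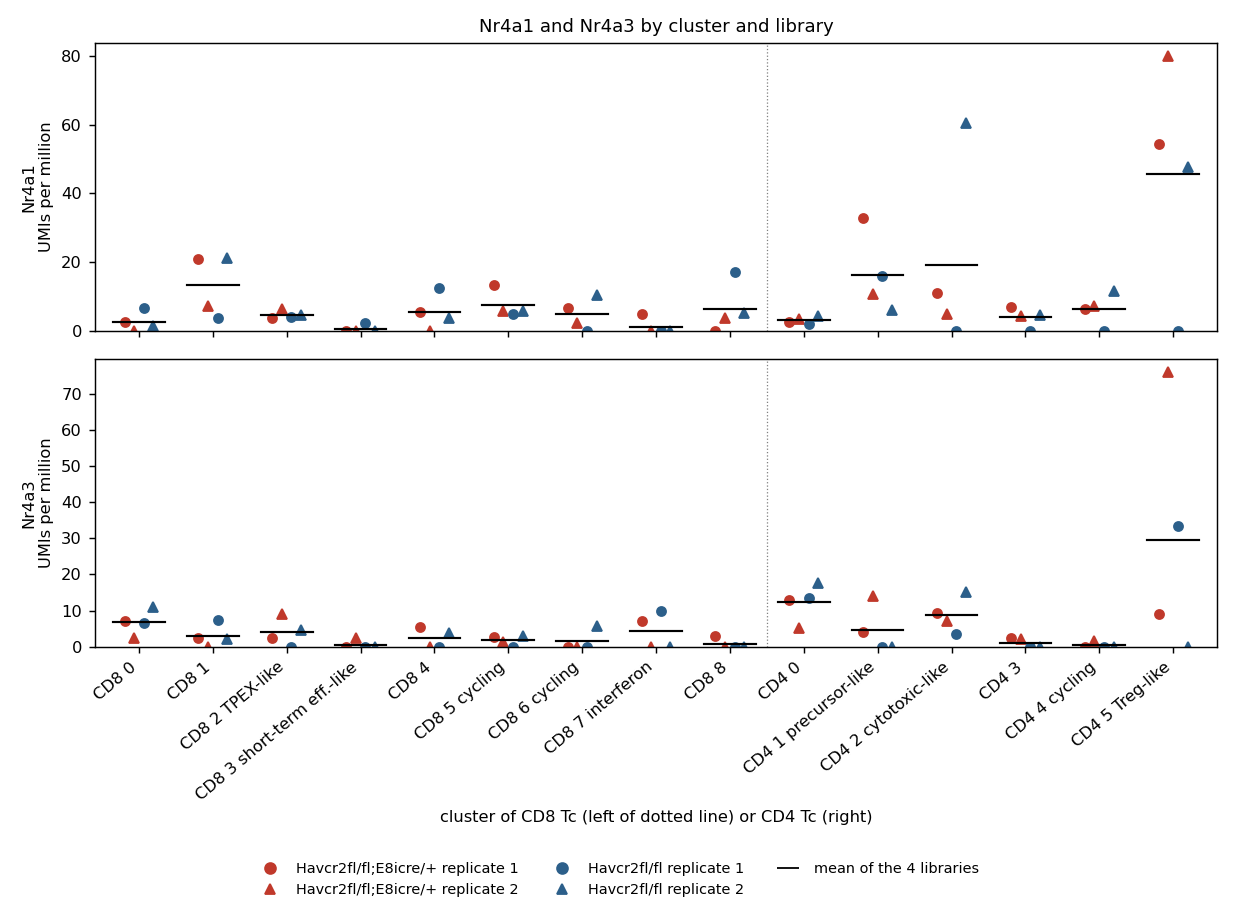
Levels of Nr4a1 and Nr4a3 in UMIs per 1000000 (y axes, linear, from 0) by cluster of CD8 and CD4 Tc (x axis), with 1 point per library and a line at the mean. The Treg-like cluster has the highest means, 45.5 for Nr4a1 and 29.6 for Nr4a3, with libraries at 0 in both.

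Pearson's r of log2(CPM + 1) was taken across the 14 clusters with at least 10 cells in every library. It was 0.76 between Tox and Nr4a2, 0.72 between Tox2 and Nr4a2 and 0.67 between Tox and Tox2. With Nr4a1, Tox2 had 0.68, Tox 0.31 and Nr4a2 0.31. With Nr4a3, Tox had 0.61, Tox2 0.22 and Nr4a2 0.16. Nr4a1 and Nr4a3 had 0.19 with each other. The clusters share libraries, so these are descriptions. Of 7864 genes, those most like Tox were Pitpnm2 (0.94), Pdcd1 (0.93), Lrmp (0.91), Pacsin1 (0.91) and Ly75 (0.91). For Nr4a2 they were the chemokine gene Ccl4 (0.95), Stk39 (0.95), Ociad2 (0.94), Sh2d2a (0.94) and 2900026A02Rik (0.94). For Tox2 they were Lmbrd2 (0.86), Ccnh (0.85), Gas2 (0.84), Gm45716 (0.84) and Cstf3 (0.84). The sparse Nr4a1 was nearest to Prkcsh (0.90), Ccdc69, Inpp5f, Thumpd3 and Heatr3, and Nr4a3 to B4galnt1 (0.93), Gm37529, Dusp2, Rnf11 and Birc2.

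Within single CD8+ Tc at equal depth, Tox was found more often in cells with an Nr4a2 UMI than in cells without one in every library. A Tox UMI was seen in 77.3%, 79.9%, 79.2% and 73.2% of cells with an Nr4a2 UMI and in 59.8%, 64.9%, 58.6% and 54.4% of cells without. Tox2 was found in 11.3% of cells with an Nr4a2 UMI and 6.55% of those without, on average over the libraries. CD4+ Tc showed the same order, with Tox in 84.6%, 92.3%, 78.6% and 60.0% of the 26, 26, 14 and 20 cells with an Nr4a2 UMI and in 40.8%, 57.5%, 45.5% and 30.7% of the rest. These shares come from the same cells as the clusters and are given without a test.

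Cycling was set by the summed UMIs of 91 cell cycle genes, none of them a member, with a cut at 68.8 per 10000 UMIs. Of CD8+ Tc, 23.0%, 13.9%, 11.1% and 21.5% were cycling, and of CD4+ Tc 11.8%, 8.2%, 5.0% and 13.5%, with 217 cells close to the cut. The 2 libraries with more cycling CD8+ Tc were those with more Nr4a2, and they also had more Nr4a2 in noncycling cells alone, as given below. Their median UMIs per CD8+ Tc were lower, at 4748.5 and 3024, against 6164 and 6974 in the other libraries. The parts of cycling and depth in the Nr4a2 values were not tested. Within the mice, 52.9% of genes in CD8+ Tc and 42.9% in CD4+ Tc differed with cycling, so a difference of a member is no rarity here.

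In CD8+ Tc, 3 members were lower in cycling cells, 1 was higher and 1 did not pass. Tox was at 530, 430, 383 and 384 CPM in cycling cells and at 702, 730, 655 and 567 in noncycling cells, and the 2 ranges did not overlap. The log2 fold change of Tox was −0.51 (SE 0.06, adjusted p = 8.48e-07), lower in 4 of 4 mice and past the threshold in all 15 alternatives. Nr4a2 was at 228, 74.0, 117 and 138 CPM in cycling and 248, 123, 131 and 253 in noncycling cells (log2 fold change −0.36, SE 0.10, adjusted p = 0.0047), with a steep difference in both replicates 2 and a small one in both replicates 1. Taking the clusters named cycling, 5 and 6, as the cycling cells gave −0.18 (edgeR adjusted p = 0.168). Cluster 8, with 66.9% of its cells cycling by the cut, was then counted as noncycling.

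Tox2 went the other way. It was at 78.5, 36.2, 49.9 and 62.7 CPM in cycling cells and at 59.8, 27.0, 47.4 and 42.4 in noncycling cells, higher in 4 of 4 mice. The fold change on the log2 scale was 0.49 (SE 0.10, adjusted p = 0.000457). Nr4a3 had 11 UMIs in 815 cycling cells and 64 in 3442 noncycling cells, or −1.46 on the log2 scale (SE 0.48, edgeR adjusted p = 0.0152). It missed the threshold without Havcr2fl/fl;E8icre/+ replicate 2 (adjusted p = 0.0535) and by DESeq2 (adjusted p = 0.0745). The same held with only the clusters named cycling taken as cycling (adjusted p = 0.101). Nr4a1 had 0.11 (SE 0.27, adjusted p = 0.753).

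The scale matters here, because cycling cells held more RNA. A cycling CD8+ Tc had on average 12011 UMIs and a noncycling one 5204. Tox UMIs per cell were 5.20, 6.25, 6.24 and 2.46 in cycling and 3.16, 4.51, 4.66 and 1.69 in noncycling CD8+ Tc, so that Tox molecules per cell were higher in every library while its share of the RNA was lower. For Nr4a2 the counts per cell were 2.24, 1.08, 1.91 and 0.884 against 1.12, 0.762, 0.931 and 0.750. Tox2 was higher on both scales, at 0.628 against 0.225 UMIs per cell on average.

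In cycling CD4+ Tc, Tox was at 210, 237, 196 and 216 CPM, a narrow range, and in noncycling CD4+ Tc at 363, 653, 517 and 285. This gave −0.91 on the log2 scale (SE 0.14, adjusted p = 1.71e-05), lower in 4 of 4 mice and past the threshold in all 15 alternatives. Tox2 had −0.00 (SE 0.28, adjusted p = 0.993) from 60 UMIs in cycling cells, and Nr4a2 had −0.30 (SE 0.26, adjusted p = 0.376) but −0.89 (adjusted p = 0.0250) without Havcr2fl/fl;E8icre/+ replicate 2. Nr4a1 and Nr4a3 did not pass the filter on low counts. Nr4a3 was at 0, 1.4, 0 and 0 CPM in cycling CD4+ Tc, from 1 UMI, and at 8.94, 13.2, 6.94 and 7.87 in noncycling cells, from 74 UMIs, with no overlap. With no filter it was called lower in cycling cells (edgeR adjusted p = 9.36e-05), and Nr4a1 was not (adjusted p = 0.373). Per cell, Tox was at 2.68, 3.31, 3 and 1.36 UMIs in cycling and 1.43, 3.52, 2.93 and 0.804 in noncycling CD4+ Tc, higher with cycling in 3 of 4 libraries.

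Whether the effect of cycling differed between the lineages was tested as an interaction, chosen after the values had been seen, in which 0.248% of genes passed. By edgeR, 0 of 5 members passed, with 1 at an unadjusted p under 0.05 and 0 by DESeq2. That member was Tox, at 0.42 (SE 0.16, adjusted p = 0.391). Of the lists of related genes, read against the 52.9% of all genes that differed with cycling in CD8+ Tc, 6 of 8 inhibitory receptors were lower and 0 higher (median −0.64, against −0.02 over all genes), with Pdcd1 at −0.66 (SE 0.07, adjusted p = 5.33e-08), and among 7 calcineurin and NFAT genes, a lower share, 2 were lower and 1 higher, with Nfatc1 at −0.54 (SE 0.08, adjusted p = 9.14e-06). Of the 9 dissociation-induced genes tested there, 5 were lower and 0 higher (median −0.28). That share is close to that of all genes in either direction, but of 9762 genes 2772 were higher and 2393 lower. Of 9 TCR-induced genes in CD8+ Tc, 3 were lower and 2 higher. In CD4+ Tc, 5 of 6 dissociation-induced and 7 of 9 TCR-induced genes were lower with cycling and 0 higher (medians −0.77 and −0.88, against −0.03 over all genes). The part of these genes in the values of the members was not tested.

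**Figure D3:**
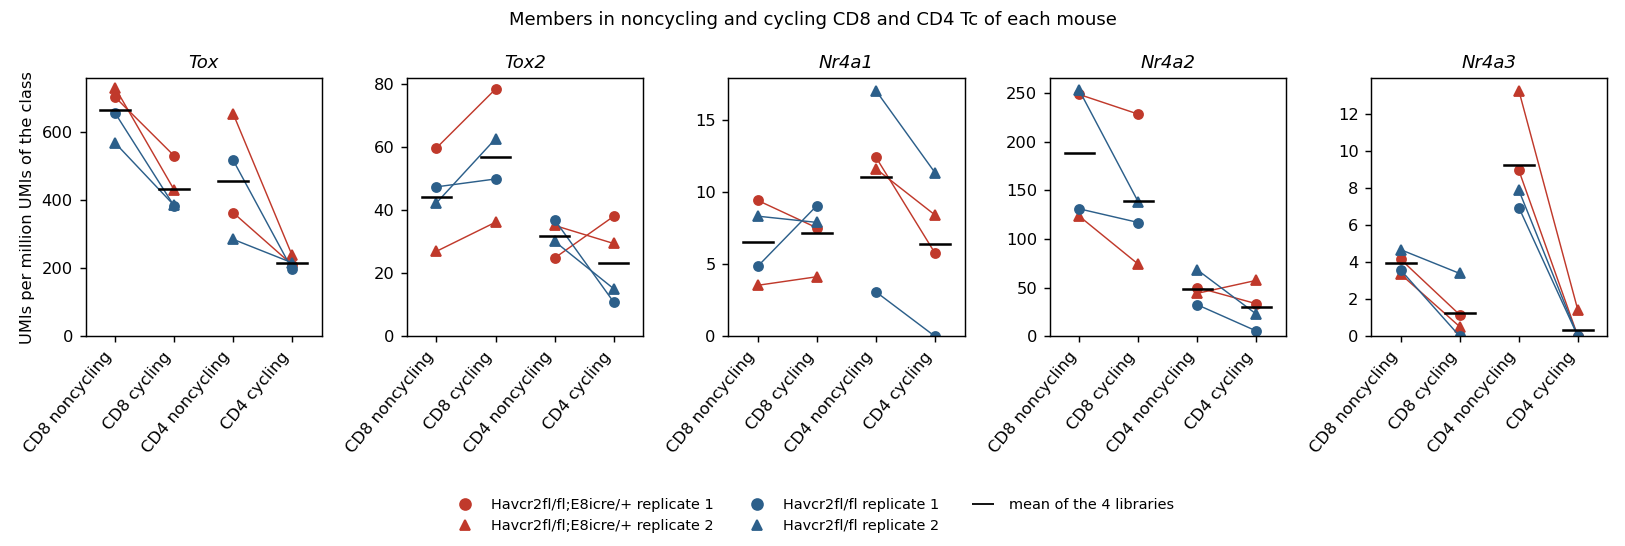
Levels of the 5 members in UMIs per 1000000 UMIs of the class (y axes, linear, from 0) in noncycling and cycling CD8 and CD4 Tc (x axis), with lines that join the 2 classes of a mouse and bars at the mean of the 4 libraries. Tox falls in every mouse in both lineages, and Tox2 rises in every mouse in CD8 Tc, from a mean of 44.1 to 56.8.

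Splits by single genes gave a test that the clusters could not. A cell without a UMI of the gate gene may still express it, so the class without holds expressing cells too. The classes are therefore not whole states. Noncycling cells with at least 2000 UMIs were split by whether a UMI of the gate gene remained after thinning. Both classes of a mouse were compared with the mouse as a block. Nr4a1 and Nr4a3 did not pass the filter on low counts in any of the splits. In the Tcf7 split of CD8+ Tc both were lower with Tcf7 in 4 of 4 mice, with no call in any setting. In no other split did either differ in the same direction in all mice. Among CD8+ Tc, 350 cells had a Tcf7 UMI and 2902 had none, and 12.9% of genes differed. Nr4a2 was at 33.1, 60.9, 3.73 and 46.3 CPM with Tcf7 and at 275, 134, 142 and 283 without. The 2 sets were far apart in every mouse, by −2.24 on the log2 scale (SE 0.21, adjusted p = 6.54e-10), which passed in all 13 alternatives.

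Tox separated CD8+ Tc with a Tcf7 UMI from those without much less. It was at 513, 824, 467 and 357 CPM with Tcf7 and at 721, 711, 669 and 579 without, so that Havcr2fl/fl;E8icre/+ replicate 2 went against the other 3 mice. Its log2 fold change was −0.32 (SE 0.10, adjusted p = 0.0363). The call was lost without Havcr2fl/fl;E8icre/+ replicate 1 (−0.22, adjusted p = 0.330), Havcr2fl/fl replicate 1 (−0.26, adjusted p = 0.103) or Havcr2fl/fl replicate 2 (−0.23, adjusted p = 0.228), and with DESeq2 (adjusted p = 0.152). Tox2 had −0.45 (SE 0.22, edgeR adjusted p = 0.199), lower in 2 mice and higher in 2. It passed where the Tcf7 UMI was read before thinning (−0.61, adjusted p = 0.0331). Most of the other exhaustion factors and inhibitory receptors were lower with Tcf7, 4 of 6 and 6 of 8 (medians −0.80 and −0.74, against 0.01 over all genes), with Id2 at −1.04 (SE 0.08, adjusted p = 3.36e-12) and Prdm1 (BLIMP1) at −2.46 (SE 0.27, adjusted p = 1.48e-08).

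A Cx3cr1 UMI was found in 246 CD8+ Tc, and 4.03% of genes differed from the 3006 cells without. Nr4a2 was at 145, 69.0, 102 and 244 CPM with Cx3cr1 and at 255, 127, 134 and 266 without, which is −0.54 on the log2 scale (SE 0.13, adjusted p = 0.0056), lower in 4 of 4 mice. Tox was at 492, 566, 501 and 603 CPM against 711, 738, 671 and 559, which is −0.34 (SE 0.08, adjusted p = 0.0030), lower in 3 of 4 mice. Both calls were lost without Havcr2fl/fl;E8icre/+ replicate 1 (adjusted p = 0.149 for Tox and 0.225 for Nr4a2) and by DESeq2 (adjusted p = 0.158 and 0.0989), and that of Tox also without Havcr2fl/fl replicate 1 (adjusted p = 0.0988). Tox2 had −0.45 (SE 0.24, adjusted p = 0.418). The cells with a Cx3cr1 UMI are not the short-term effector-like cluster, where Tox was at 272 to 390 CPM and Nr4a2 at 18.4 to 32.4.

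Pdcd1, the gene of PD-1, split CD8+ Tc into 1500 cells with a UMI and 1752 without, and 3.0% of genes differed. Tox was at 803, 860, 774 and 636 CPM with Pdcd1 and at 605, 621, 547 and 498 without, with no overlap. This gave 0.41 on the log2 scale (SE 0.05, adjusted p = 5.09e-06), higher in 4 of 4 mice and past the threshold in 12 of 13 alternatives. Nr4a2 was at 320, 153, 119 and 385 CPM against 184, 98.9, 140 and 162, so that Havcr2fl/fl replicate 1 went against the other 3. For Nr4a2 the log2 value was 0.66 (SE 0.11, adjusted p = 0.00032), and with DESeq2 0.60 (adjusted p = 1.00). Tox2 had 0.19 (SE 0.11, adjusted p = 0.468), and passed where the Pdcd1 UMI was read before thinning (0.70, adjusted p = 0.00041). Among the inhibitory receptors left in this test, 3 of 7 were higher and 0 lower, with Lag3 at 0.38 (SE 0.06, adjusted p = 0.000211).

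In CD4+ Tc the Tcf7 split gave another picture for Tox2. With 363 cells that had a Tcf7 UMI and 1134 that had none, 5.44% of genes differed. Tox2 was at 32.7, 57.8, 82.1 and 56.5 CPM with Tcf7 and at 22.8, 25, 24.8 and 21.2 without, with no overlap, from 98 and 127 UMIs. Its log2 fold change was 1.25 (SE 0.22, adjusted p = 0.0011), higher in 4 of 4 mice and past the threshold in all 13 alternatives. Nr4a2 went the way it did in CD8+ Tc, at 2.72, 15.0, 25 and 56.5 CPM with Tcf7 and 61.6, 56.1, 34.7 and 77.0 without (log2 fold change −1.57, SE 0.32, adjusted p = 0.0032), lower in 4 of 4 mice but at an adjusted p of 0.108 without Havcr2fl/fl;E8icre/+ replicate 2. Tox had −0.12 (SE 0.13, adjusted p = 0.769).

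The difference of the Tcf7 split between the lineages was tested as an interaction, chosen after the values had been seen, and 1.01% of genes passed. Tox2 was among them, with a log2 difference of −1.68 (SE 0.31, edgeR adjusted p = 0.0032). That is, cells with a Tcf7 UMI had relatively less Tox2 in CD8+ than in CD4+ Tc. Tox2 passed in 11 of 12 alternatives. Of the other 2 members tested, Tox and Nr4a2, neither passed.

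Foxp3, the factor of regulatory T cells, was found in 67 CD4+ Tc (20, 37, 3 and 7), and 6.68% of genes differed from the 1430 without. Tox was at 229, 341, 43.8 and 103 CPM with Foxp3, from 77 UMIs, and at 368, 665, 518 and 282 without. It was lower in 4 of 4 mice, at −1.31 on the log2 scale (SE 0.28, adjusted p = 0.000121), and passed in all 13 alternatives. The ratio of pooled CPM for Tox was 0.525 (95% exact interval 0.414 to 0.659, counting error only). Both Havcr2fl/fl values rest on little RNA, 22845 and 19351 gene UMIs from the 3 and 7 cells with Foxp3. Tox2 had 1 UMI in all cells with Foxp3 and 224 in those without, a ratio of pooled CPM of 0.106 (95% exact interval 0.00268 to 0.599, counting error only). Its call (adjusted p = 0.0262) was lost without Havcr2fl/fl;E8icre/+ replicate 1 (adjusted p = 0.149), replicate 2 (adjusted p = 0.660) or Havcr2fl/fl replicate 1 (adjusted p = 0.0518), and by DESeq2 (adjusted p = 0.25). Nr4a2 had 8 UMIs, all in Havcr2fl/fl;E8icre/+ replicate 2, and did not pass (adjusted p = 0.431). Nr4a1 and Nr4a3, at 5 and 4 UMIs with Foxp3, had ratios of 1.73 (95% exact interval 0.544 to 4.23) and 1.4 (0.371 to 3.76), and each was higher in 2 mice and lower in 2.

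**Figure D4:**
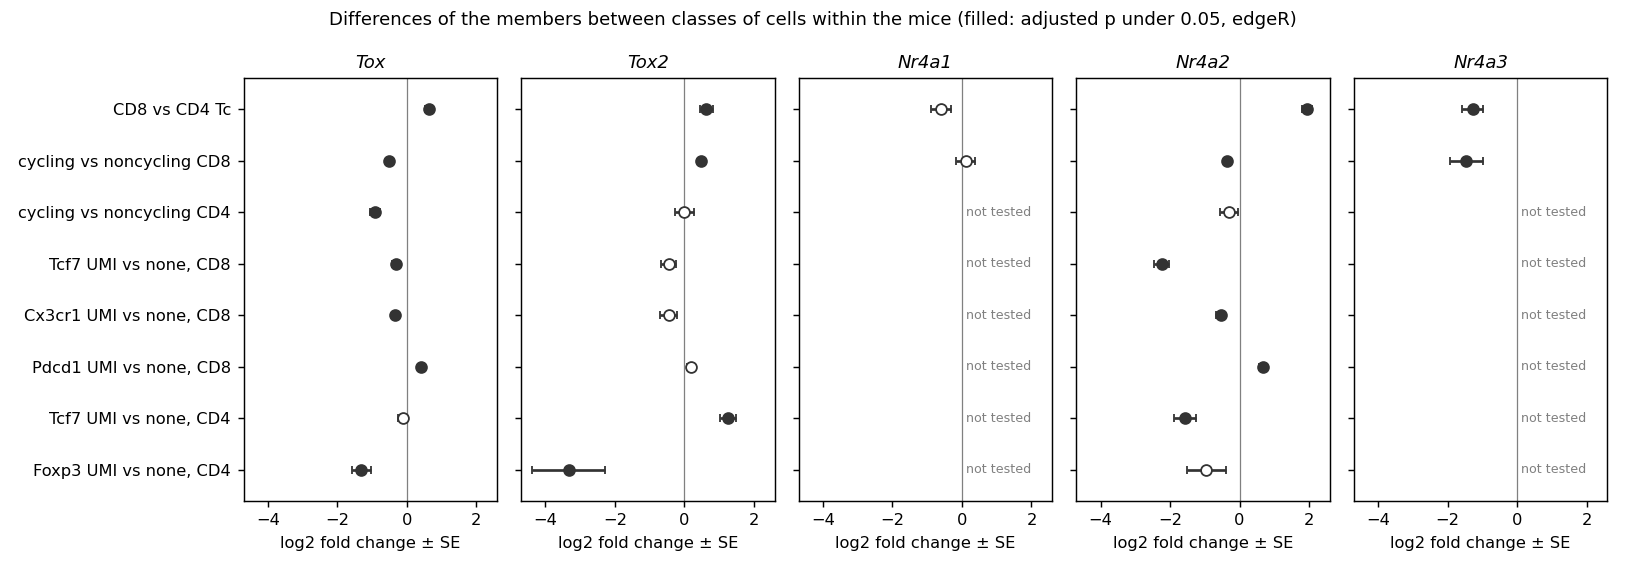
Log2 fold changes of the 5 members (x axes, with SE as bars) in 8 comparisons of cell classes within the 4 mice (y axis), filled where the adjusted p was under 0.05. Nr4a2 lies between −2.24 for the Tcf7 split of CD8 Tc and 1.94 for CD8 against CD4 Tc. Tox2 lies at −0.45 (not filled) for the Tcf7 split of CD8 Tc and at 1.25 (filled) for that of CD4 Tc.

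The study's question was what loss of TIM-3 from CD8+ cells does, and libraries labelled Havcr2fl/fl;E8icre/+ were therefore set against those labelled Havcr2fl/fl. In CD8+ Tc, 0.0276% of genes passed and 0 of 5 members did by edgeR, with 0 at an unadjusted p under 0.05 and 0 by DESeq2. Tox was at 635 ± 10.2 against 542 ± 67.6 CPM (SD, n = 2 each), which is 0.19 on the log2 scale (SE 0.22, adjusted p = 0.999). Nr4a2 had −0.00 (SE 0.33), Tox2 −0.07 (SE 0.30), Nr4a1 −0.22 (SE 0.42) and Nr4a3 −0.38 (SE 0.44), all at an adjusted p of 0.999. Of the 6 lists of related genes, 1 gene passed, the inhibitory receptor Tigit at −2.43 (SE 0.25, adjusted p = 0.0141). Havcr2 itself did not pass (−1.35, SE 0.64, edgeR adjusted p = 0.999), and whether it was deleted in each library was not tested. With 2 mice per genotype, a p that misses the threshold does not show that the genotypes are alike.

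In CD4+ Tc, where the cre is not meant to act, 0.0104% of genes passed, and by edgeR 0 of 5 members did, with 0 at an unadjusted p under 0.05 and 0 by DESeq2. Tox had 0.22 (SE 0.35) and Nr4a2 0.09 (SE 0.29), both with an adjusted p of 1.00. The difference of the genotype effect between the lineages gave 0.0184% of genes and, by edgeR, 0 of 5 members, with 0 at an unadjusted p under 0.05 and 0 by DESeq2.

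Within TPEX-like cells 3 members could be tested, 0.0% of genes passed by edgeR (384 of 6908 at an unadjusted p under 0.05 and 2 by DESeq2), and 0 members did (1 unadjusted, 0 by DESeq2). Leaving out 1 library gave 17 and 10 genes without Havcr2fl/fl;E8icre/+ replicates 1 and 2, and 79 and 34 without Havcr2fl/fl replicates 1 and 2, and 0 members each time. Tox was at 577 and 845 CPM in the libraries labelled Havcr2fl/fl;E8icre/+ and at 511 and 381 in those labelled Havcr2fl/fl. Its log2 fold change was 0.66 (SE 0.27, unadjusted p = 0.0332, adjusted p = 0.830) and 0.32 without Havcr2fl/fl;E8icre/+ replicate 2. Nr4a2 had 0.66 (SE 0.43, adjusted p = 0.901) from 10 to 102 UMIs per library, and 0.06 to 1.54 with 1 library left out. In CD8 cluster 1, compared by its number after the values had been seen, 0.0% of genes passed by edgeR (293 of 7485 at an unadjusted p under 0.05 and 3 by DESeq2), and 0 of 4 members tested (0 unadjusted, 0 by DESeq2). With 1 library left out, in the order of the libraries, 21, 0, 72 and 30 genes passed and 0 members. Tox had 0.06 (SE 0.23) and Nr4a2 −0.09 (SE 0.28) there.

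**Figure D5:**
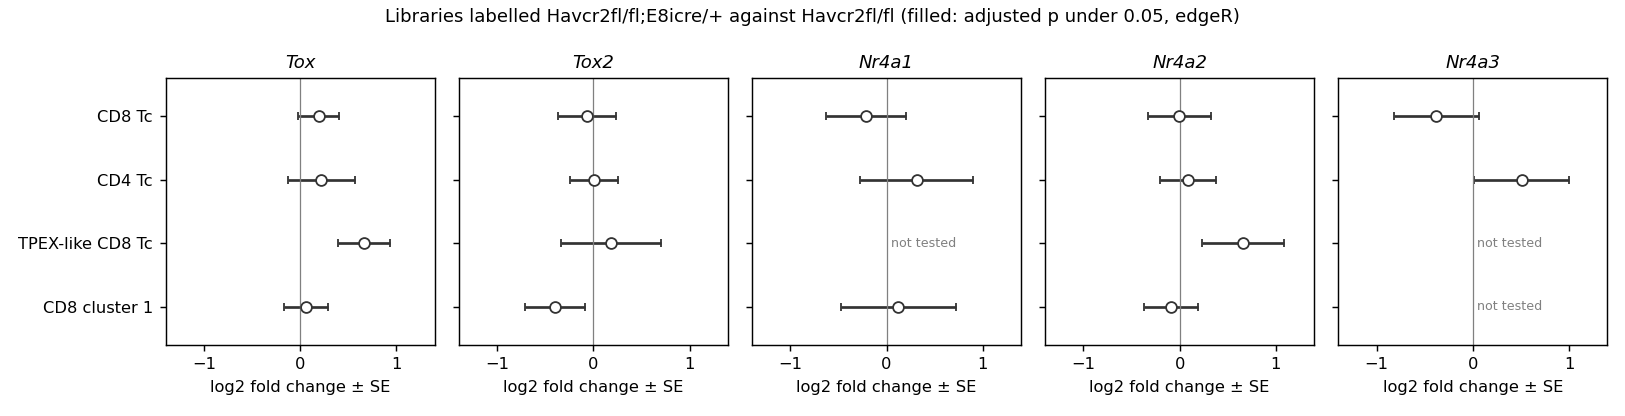
Log2 fold changes of the 5 members (x axes, with SE as bars) between libraries labelled Havcr2fl/fl;E8icre/+ and Havcr2fl/fl, 2 each, in 4 classes of cells (y axis). No symbol is filled, since none had an adjusted p under 0.05, and Tox and Nr4a2 in TPEX-like cells lie farthest to the right, both at 0.66.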

How the data were processed

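The authors sequenced 3′ gene expression libraries (10x) of spleen Tc from 4 recipients and deposited filtered matrices of UMI counts per gene and cell, made with Cell Ranger 6.1.2 on mm10 per the submitters' processing notes. In each matrix, 1 further row of counts holds a donor antibody tag. The deposited counts were used as they are. Depth was 17693991 to 55045903 gene UMIs per library, and intervals cover counting error only. The cell filter asked for 500 genes and 1000 UMIs or more and no more than 10% of UMIs from mitochondrial genes (scanpy 1.11.5), doublets were removed with Scrublet, and cells were clustered after integration of libraries (Seurat 5.3.0) with the 5 members, Havcr2, sex-linked and receptor V genes left out of the variable genes. A cluster was named from markers that exclude the members. No CD8 cluster could be named TTEX-like, so the genotype comparison planned in it was not run, and cluster 1 was compared in its place, chosen after seeing the data.

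UMIs were summed per library and class and tested with edgeR 4.0.16 (quasi-likelihood test, TMM, Benjamini-Hochberg over all genes tested, threshold 0.05, two-sided), with the mouse as a block where both classes came from the same mice. DESeq2 1.42.0 and other choices of normalization, filter, doublets, cells, clusters and left-out replicates were alternatives. Each mouse gave 1 library, so replicates are mice. Replicate numbers are not said to mark a shared batch, and the main genotype fit has no replicate block. The scripts were tested on simulated data with 200 changed genes. At a log2 change of 1, 18.0% were recovered in the CD8 genotype contrast with 4 false calls. At a change of 2 it was 93.5% with 14. At a change of 1, CD8 against CD4 Tc gave 85.0% with 19 false calls, and cycling CD8 Tc 87.0% with 14. Levels are plain CPM, and fold changes are fitted. Genes that set classes of cells were left out of tests between those classes and of their totals there.

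The members and lists were chosen with earlier results of these data known. Named are the 5 members, though not each in every comparison, and Tox3 and Tox4 as their relatives. The 5 genes with the highest Pearson r to each member over the clusters (at least 10 CPM on average) are named too. Of each list, at most 4 genes that passed are named, by adjusted p. Whether Tc were enriched by a kit alone or also sorted differs between the sources used here. Gene positions are from GENCODE M21 on GRCm38 and promoters from RefSeq.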

Additional observations from a re-analysis of the deposited data

Results flagged for a closer look

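The effect of a Tcf7 UMI on Tox2 differed between CD8+ and CD4+ Tc. The log2 difference was −1.68 (SE 0.31, edgeR adjusted p = 0.0032), from −0.45 (SE 0.22) in CD8+ Tc and 1.25 (SE 0.22) in CD4+ Tc. The interaction was chosen after both values had been seen. Tox2 was higher with Tcf7 in 4 of 4 mice in CD4+ Tc, and in CD8+ Tc it was lower in 2 of 4, at 31.3, 28.5, 48.5 and 18.5 CPM with Tcf7 and 62.6, 26.7, 46.8 and 46.2 without. Counts behind the cells with Tcf7 were small, 57 UMIs in CD8+ and 98 in CD4+ Tc. Leaving out 1 library at a time gave −1.93 to −1.57, and with no mouse block the difference was −1.79 (adjusted p = 0.134). In CD8+ Tc alone the value was −0.61 (adjusted p = 0.0331) where the Tcf7 UMI was read before thinning.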

How the results depend on the processing

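Of the fold changes of members under the alternatives, 657 kept their direction and side of the threshold, 36 lost the call, 4 gained one and 49 changed sign; the cause was not tested. Without the mouse block, which pairs classes of cells from 1 mouse, members called were 2 for CD8 against CD4, 2 for cycling CD8, 1 for the CD8 and 1 for the CD4 Tcf7 split, 0 for Cx3cr1, 0 for Pdcd1 and 0 for the Tcf7 interaction. DESeq2 gave 1 for the CD8 Tcf7 split, 0 for Cx3cr1, 1 for Pdcd1 and 1 for Foxp3. Cycling by cluster gave 2 in CD8 Tc, no filter on low counts 2 in cycling CD4 Tc, doublets by expected rate 1 in the CD8 Tcf7 split and the stricter cell filter 1 for Foxp3. Leaving out 1 library gave 1 to 2 for cycling CD4, both Tcf7 splits and Foxp3, and 0 to 2 for Cx3cr1.

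Sign changes concerned values with no call. Between genotypes in CD8 Tc, Nr4a2 was 0.00238 by DESeq2, 0.00259 with its size factors, 0.0241 with no filter and 0.00498 with donor tag cells only. In CD4 Tc with lineage by cluster, Tox2 was −0.37 and Nr4a2 −0.23. The genotype by lineage term for Tox was −0.00687 by DESeq2, −0.00118 with its size factors, −0.0124 with no replicate block, −0.0374 with stricter cells and −0.0695 by cluster, where Tox2 was 0.19 and Nr4a2 0.13. Tox2 in cycling CD4 Tc was 0.23 with stricter cells, 0.14 with a higher cut and 0.00965 by cluster, and the cycling by lineage term of Nr4a2 was 0.00243 by DESeq2. Leaving out 1 library, genotype values ran in CD8 Tc from −0.72 to 0.37 (Tox2), −0.90 to 0.22 (Nr4a1) and −0.61 to 0.42 (Nr4a2), and in CD4 Tc from −0.33 to 0.69 (Tox), −0.17 to 0.20 (Tox2), −0.60 to 1.92 (Nr4a1) and −0.36 to 0.61 (Nr4a2). The genotype by lineage term ran from −0.41 to 0.43 (Tox), −0.87 to 0.57 (Tox2), −1.93 to 0.12 (Nr4a1) and −0.75 to 0.44 (Nr4a2). The genotype contrast within clusters ran from −0.50 to 1.83 for Tox2 and 0.06 to 1.54 for Nr4a2 in TPEX-like cells, and in cluster 1 from −0.11 to 0.25 (Tox), −1.24 to 0.0151 (Tox2), −0.92 to 2.01 (Nr4a1) and −0.56 to 0.28 (Nr4a2). Nr4a1 in cycling CD8 Tc ran from −0.0648 to 0.36, Tox2 in cycling CD4 Tc from −0.45 to 0.17, Tox in the CD4 Tcf7 split from −0.27 to 0.0540 and in the Tcf7 interaction from −0.35 to 0.00743, and Nr4a2 in the cycling by lineage term from −0.44 to 0.49.

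Over all genes, DESeq2 called 1485 against 2510 for CD8 against CD4, 2109 against 3185 for cycling CD4, 670 against 1141 for the CD8 and 185 against 389 for the CD4 Tcf7 split, 162 against 346 for Cx3cr1, 62 against 273 for Pdcd1, 228 against 366 for Foxp3 and 39 against 82 for the Tcf7 interaction. Without the mouse block these were 1022, 512 and 133 for the CD8 against CD4 comparison and both Tcf7 splits, 77 for Cx3cr1, 6 for Pdcd1 and 0 for the Tcf7 interaction. Without Havcr2fl/fl;E8icre/+ replicate 1, 673 passed in the CD8 Tcf7 split, 188 for Cx3cr1 (209 without Havcr2fl/fl replicate 1), 110 for Pdcd1 and 211 for Foxp3. Without Havcr2fl/fl;E8icre/+ replicate 2, 159 passed in the CD4 Tcf7 split (241 without Havcr2fl/fl replicate 2) and 126 for Foxp3. The gate before thinning gave 852 for Pdcd1, 657 for the CD4 Tcf7 split and 574 for Foxp3. The Tcf7 interaction had 47, 47 and 49 without Havcr2fl/fl;E8icre/+ replicates 1 and 2 and Havcr2fl/fl replicate 2, 126 with no filter and 53 with stricter cells. The cycling interaction had 24, but 99 with no filter, 1 without the block and 2 without Havcr2fl/fl;E8icre/+ replicate 1. With crossed replicate numbers, a pairing not planned and given by no label, 68 genes passed between genotypes in CD8 Tc. Deviations under the uncrossed numbers correlated at −0.129. The main genotype fit in CD8 Tc gave 3, no filter 98 and the replicate block 0. Leaving out 1 library, in the order of the libraries, gave 21, 2, 16 and 11. In CD4 Tc 1 passed, 43 with no filter, 5 by DESeq2, 6 by cluster, 0 with the replicate block, stricter cells or doublets by expected rate, and 27, 25, 5 and 5 with 1 library left out. The genotype by lineage term had 2, but 57 with no filter, 0 without the block, 4 with stricter cells and 19, 10, 4 and 26 with 1 library left out. With no filter, 42 passed in TPEX-like cells and 36 in cluster 1. Shares by state were set against the SD over the libraries. Without thinning 57 moved and 13 stayed, and without integration 20 moved and 50 stayed. At the lower resolution 18 moved and 52 stayed, at the higher 9 and 61, and with the members among the variable genes 6 and 64. Leaving out 1 library is not counted, since it cannot shift a mean by the SD. A share at 0 in every library has no spread and was labelled moved even where it did not change. Depth limits Nr4a1 and Nr4a3, with 75 to 164 UMIs per lineage.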

Other observations

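T cells that could not be put in a lineage were in no comparison. In 221 cells with UMIs of both lineages, Tox was at 459, 701, 653 and 417 CPM and Nr4a2 at 183, 85.5, 48.4 and 78.9 CPM. In 534 cells with UMIs of neither, Tox was at 294, 543, 250 and 216 CPM and Nr4a2 at 24.2, 21.1, 5.21 and 19.8 CPM. Nr4a3 had 29 UMIs in the latter, 19 of them in Havcr2fl/fl;E8icre/+ replicate 2.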
